A study of Mus musculus with 60 samples.

Results

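The Bcl2 family genes measured here were 10 of the 770 genes of a mouse brain neuroinflammation panel, chosen by gene symbol. They were the anti-apoptotic members Bcl2, Bcl2l1 (BCL-XL), Bcl2l2 (BCL-W) and Bcl2a1a (A1), the pore-forming effector Bax, and the BH3-only members Bad, Bid, Bik, Bbc3 (PUMA) and Bcl2l11 (BIM). Expression was read in hippocampus (HPC), hypothalamus (HYP) and brain stem (BS) of 20 female Balb/C mice aged 13 weeks, which had received injections into the inguinal mammary glands of either 67NR cells, a non-metastatic mouse mammary carcinoma line, in DMEM or DMEM alone as vehicle. Tissue was collected after perfusion on day 25, at ZT19 (mid-dark) or ZT7 (mid-light), from 5 mice in each of the 4 groups. The cells were placed outside the brain, and the line comes from a single spontaneous tumor. Values of 56 of the 60 listed samples were used (20 HPC, 17 HYP, 19 BS), because 4 samples labelled as outliers, BS of mouse 8 and HYP of mice 10, 12 and 32, have no column.

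BCL2 family proteins control the mitochondrial pathway of apoptosis. Anti-apoptotic members hold BAX and its relatives in check at the outer mitochondrial membrane, BH3-only proteins release or activate them under stress, and active BAX opens pores through which cytochrome c escapes to activate caspase-9. Neurons rely on BCL-XL for survival, and BID links death receptors to mitochondria after cleavage by caspase-8.

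All values are log2 expression values of the nCounter assay, which counts probe molecules bound to each transcript. Levels are compared within a gene only, since probes differ between genes. Each region was 1 dissected piece of bulk tissue, so fewer cells of a type and less RNA per cell cannot be told apart. The median correlation of a sample with others of its region was 0.98 to 0.99, and no sample was closer to another region. Tbr1, a forebrain neuron factor, was 7.63 to 8.94 in HPC and at most 5.98 elsewhere. A 260/280 absorbance ratio under 1.8 was recorded for 4 of 10 tumor and 1 of 9 vehicle BS samples, for 1 HPC sample (mouse 12) and for no HYP sample. Ttr, the choroid plexus transthyretin gene, ranged from 5.36 to 14.71 in HPC and from 6.49 to 13.77 in BS.

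The first question was where in the brain each member was higher or lower. Of the 10 members, 9 differed between HPC and BS (limma, adjusted p under 0.05), 7 between HPC and HYP and 8 between HYP and BS. Most panel genes differed as well (76.6%, 71.7% and 66.5%), so these counts are near the background. The median size of the difference was 0.29 for the members and 0.33 for all genes between HPC and BS. It was 0.29 against 0.26 between HPC and HYP, and 0.20 against 0.23 between HYP and BS. All 4 anti-apoptotic members were lower in HPC than in BS, although the call for Bcl2l1 was lost in 13 of 26 alternatives. Of the 6 pro-apoptotic members, 4 were higher in HPC, 1 was lower and Bik missed the threshold. Whether this split by role was unlike that of other panel genes was not tested.

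Among anti-apoptotic members, Bcl2, the founding member of the family, differed most. It ranged from 6.70 to 7.78 in HPC (median 7.17, n = 20), from 7.83 to 8.24 in HYP (median 8.11, n = 17) and from 7.32 to 7.91 in BS (median 7.72, n = 19). The HPC and HYP samples did not overlap (19.7% of panel genes showed such separation), and BS lay between. Bcl2 was lower in HPC than in HYP by 0.88 on the log2 scale (95% confidence interval 0.77 to 0.99), in 17 of 17 mice. It was 0.49 lower in HPC than in BS, in 18 of 19 mice, and 0.39 higher in HYP than in BS, in 16 of 16 mice. Bcl2l2 was highest in BS, with a difference of -0.12 for HPC minus BS and of -0.17 for HYP minus BS. Its HPC and HYP levels differed by 0.054 (interval -0.003 to 0.11, adjusted p 0.0855). Bcl2a1a, an immune cell member, was lower in HPC than in BS by 0.39 and lower than in HYP by 0.23, while HYP minus BS was -0.17 (interval -0.34 to 0.004, adjusted p 0.0786). Mouse Bcl2a1 exists in several near-identical copies, so probe counts for Bcl2a1a may include its paralogs. Bcl2l1 had the smallest regional differences of the called members. HYP exceeded HPC by 0.11, in 17 of 17 mice, and BS by 0.057 (adjusted p 0.045), and HPC minus BS was -0.052 (adjusted p 0.0471). The HPC minus BS call was lost with no mouse block (adjusted p 0.0728) or without any 1 of mice 1, 2, 6, 8, 9, 11, 19, 22, 23, 28, 29 and 32 (adjusted p up to 0.105). The HYP minus BS call was lost with no mouse block (adjusted p 0.0712), without the samples of low absorbance ratio (adjusted p 0.161) or without any 1 of mice 3, 4, 5, 6, 9, 12, 13, 19, 23 and 30 (adjusted p up to 0.10037).

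Bax, which forms the mitochondrial pore, was highest in HPC, where Bcl2 was lowest. It ranged from 8.47 to 8.75 in HPC (median 8.61), from 8.08 to 8.39 in HYP (median 8.27) and from 7.96 to 8.40 in BS (median 8.12). No HPC sample overlapped either of the other regions, a separation that 19.7% of panel genes showed from HYP and 26.2% from BS, and the other two regions overlapped each other. Bax in HPC exceeded HYP by 0.35, in 17 of 17 mice, and BS by 0.48, in 19 of 19 mice. HYP exceeded BS by 0.12, in 14 of 16 mice.

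The BH3-only genes did not share 1 regional order. Bid, Bbc3 and Bcl2l11 were higher in HPC than in BS by 0.72, 0.72 and 0.18, while Bad was lower by 0.094. Bid was lowest in BS, where it ranged from 7.27 to 7.76, against 7.85 to 8.78 in HPC and 7.99 to 8.46 in HYP. Neither forebrain region overlapped BS (26.2% of panel genes were separated between HPC and BS, 15.6% between HYP and BS). HPC minus HYP was 0.034 for Bid (interval -0.059 to 0.13), with Bid higher in HPC in 8 of 17 mice. Bbc3, which encodes the p53-induced protein PUMA, decreased from HPC to HYP to BS, with steps of 0.47 and 0.25. The second step missed the threshold without mouse 29 (adjusted p 0.0573) or mouse 30 (adjusted p 0.054). Bcl2l11 was highest in HPC, 0.41 above HYP in 17 of 17 mice, and BS exceeded HYP by 0.23. Bad, whose protein is silenced by survival kinase signalling, was highest in HYP, 0.38 above HPC in 17 of 17 mice and 0.28 above BS in 16 of 16 mice. Bik ranged from 1.87 to 4.50, and its 3 regional differences were -0.019 to -0.12, none called. It was the lowest valued member, although no member reached the lowest value of the table (-0.37). Low Bik values were tied, with 2.19 the lowest in tumor-bearing mice of HPC and BS at mid-light and of HYP at mid-dark. Raw counts were not analysed, so how far Bik lay above background is unknown.

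**Figure D1:**
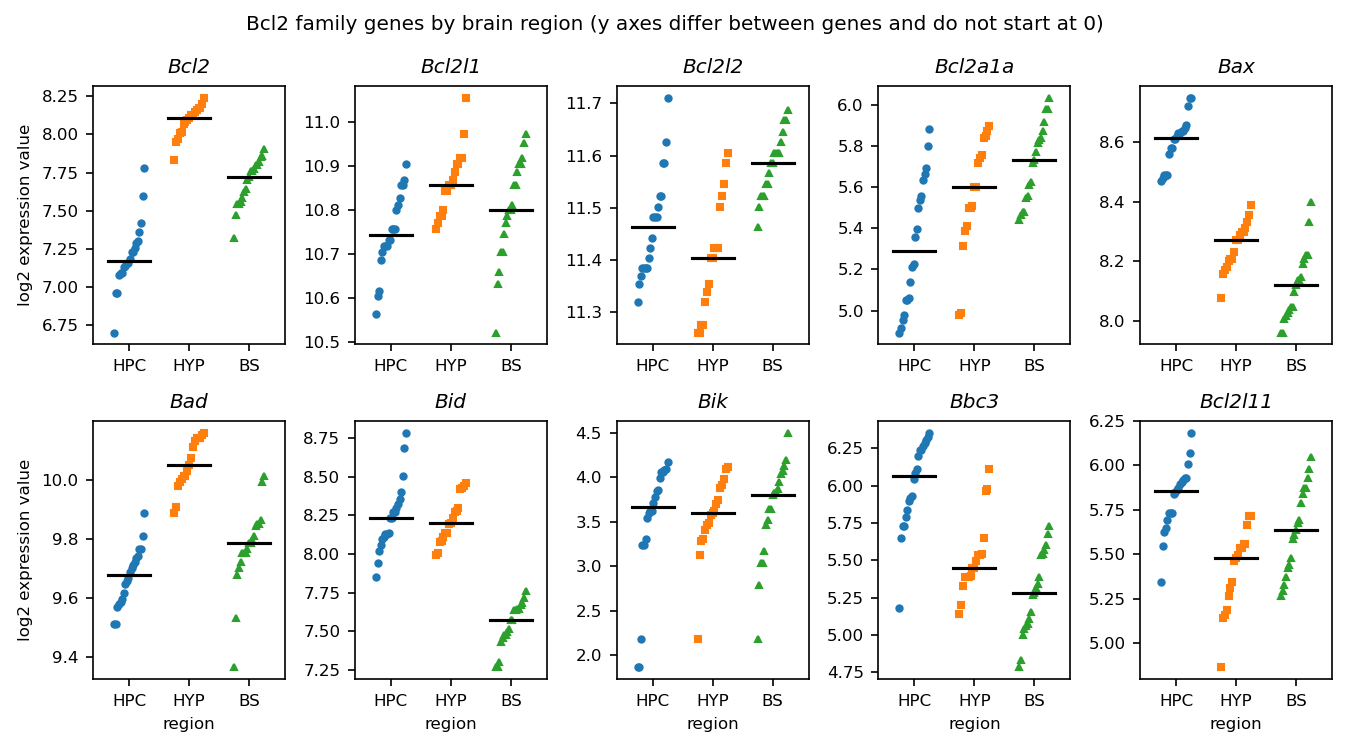
Log2 expression values (y axis, a separate scale for each gene) of the 10 Bcl2 family genes in hippocampus (HPC, n = 20), hypothalamus (HYP, n = 17) and brain stem (BS, n = 19). Points are samples sorted by value and bars are medians. Bcl2 is lowest and Bax highest in HPC, and Bid is separated between BS and both other regions.

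Markers of several cell types differed between the same regions. All 5 oligodendrocyte markers were lower in HPC than in BS and in HYP than in BS, and 4 of 5 neuron markers were higher in HPC than in BS. The part of cell makeup in the regional differences of the members was not tested.

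The second question was whether members differed between mid-dark and mid-light. Averaged over both tumor groups, Bid was called in HPC and in BS, in opposite directions, and no other member was called. Panel-wide, 5.59% of genes were called in HPC, 4.94% in BS and 2.34% in HYP, so 1 of 10 members in each of HPC and BS was near the background. By unadjusted p under 0.05 the members were 2 in HPC, 4 in BS and 0 in HYP, against 18.7%, 15.9% and 13.2% of all genes. Between HPC and BS, Bid was the only one of the 770 genes whose dark minus light difference was called as unlike (0.13%). Within vehicle injected or tumor-bearing mice alone no member was called, where 2.34% and 1.04% of genes were called in HPC, 0.26% and 1.04% in HYP, and 1.3% and 0.78% in BS.

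In HPC of vehicle injected mice, Bid was 8.14, 8.13, 8.78, 8.69 and 8.30 at mid-dark (mice 4, 8, 12, 28 and 32). It was 7.94, 8.23, 8.06, 8.23 and 8.02 at mid-light (mice 2, 6, 10, 22 and 30). Mice 12, 28 and 32 lay above every mid-light mouse, and mice 4 and 8 lay within the mid-light range. In HPC of tumor-bearing mice, Bid was 8.40, 8.36, 8.50, 8.27 and 8.32 at mid-dark (mice 3, 7, 11, 19 and 23). It was 8.27, 7.85, 8.13, 8.10 and 8.11 at mid-light (mice 1, 5, 9, 13 and 29). Only mouse 1 at mid-light reached the lowest mid-dark value, that of mouse 19. The dark minus light difference was 0.31 in vehicle injected mice (SE 0.12, adjusted p 0.17) and 0.28 in tumor-bearing mice (SE 0.12, adjusted p 0.329), and together Bid rose at mid-dark by 0.30 (SE 0.083, 1.23-fold, adjusted p 0.0429). The call was lost in 17 of 26 alternatives, with an adjusted p of 0.0207 to 0.0857 and a difference of 0.25 to 0.33 in all of them. They were the removal of any 1 of mice 2, 3, 5, 7, 9, 10, 11, 12, 13, 22, 23, 28, 29, 30 and 32, ordinary p values, and the removal of the HPC sample with the low absorbance ratio.

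In BS the order was turned. Bid of vehicle injected mice was 7.43, 7.27, 7.47 and 7.27 at mid-dark (mice 4, 12, 28 and 32) and 7.58, 7.71, 7.63, 7.64 and 7.49 at mid-light (mice 2, 6, 10, 22 and 30). These groups did not overlap, as was the case for 5.84% of panel genes. Bid of tumor-bearing mice was 7.52, 7.45, 7.30, 7.47 and 7.63 at mid-dark (mice 3, 7, 11, 19 and 23) and 7.58, 7.68, 7.64, 7.76 and 7.67 at mid-light (mice 1, 5, 9, 13 and 29), with mouse 23 alone within the mid-light range. Bid at mid-dark fell by 0.22 in BS (SE 0.048, 0.857-fold, adjusted p 0.0105), and all 26 alternatives kept the call (adjusted p 0.00684 to 0.0346). The difference was -0.25 in vehicle injected mice (adjusted p 0.0845) and -0.19 in tumor-bearing mice (adjusted p 0.247).

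In HYP, Bid of vehicle injected mice was 7.99, 8.01 and 8.19 at mid-dark (mice 4, 8 and 28) and 8.11, 8.28, 8.14 and 8.42 at mid-light (mice 2, 6, 22 and 30). Bid of tumor-bearing mice was 8.43, 8.08, 8.23, 8.09 and 8.27 at mid-dark, against mid-light values of 8.46, 8.20, 8.30, 8.14 and 8.44, in the mouse order given above. Both pairs of groups overlapped. The dark minus light difference was -0.13 (SE 0.069, interval -0.28 to 0.017, adjusted p 0.449).

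**Figure D2:**
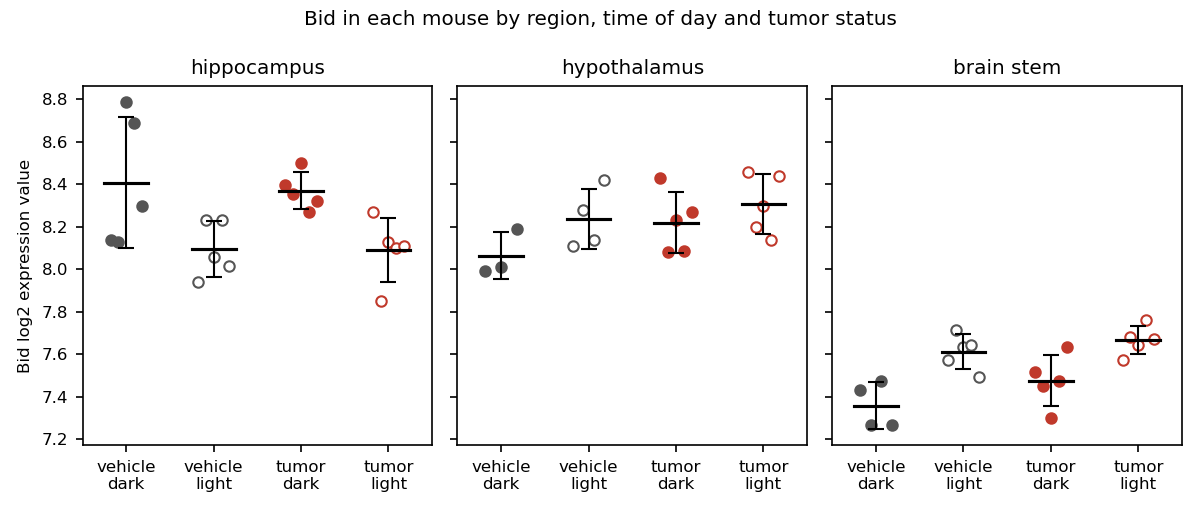
Bid log2 expression value (y axis, not starting at 0) of each mouse in 3 regions, for vehicle injected (grey) and tumor-bearing mice (red) at mid-dark (filled) and mid-light (open). Bars are means and whiskers SD over 3 to 5 mice. Mid-dark means are above mid-light means in hippocampus and below them in brain stem in both tumor groups.

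The dark minus light difference of Bid was 0.52 larger in HPC than in BS (SE 0.089, interval 0.34 to 0.70, adjusted p 0.00031, first of 770 genes by p value). All 26 alternatives kept this call, with differences of 0.46 to 0.57 and an adjusted p of 6.95e-05 to 0.00251. One of these alternatives left out the samples of low absorbance ratio. HPC exceeded HYP by 0.42 in the same measure (SE 0.092, adjusted p 0.0129), where 3 panel genes were called (0.39%, or 8.83% by unadjusted p), and this call was lost only without mouse 29 (adjusted p 0.05004). HYP minus BS was 0.099 (interval -0.090 to 0.29), a pair of regions for which no panel gene was called by limma and 27 of 770 (3.51%) had an unadjusted p under 0.05.

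The same pattern was read within mice. Bid in HPC minus Bid in BS was 0.88, 0.90, 1.20, 0.80 and 0.69 in tumor-bearing mice at mid-dark (mice 3, 7, 11, 19 and 23) and 0.71, 1.52, 1.21 and 1.03 in vehicle injected mice (mice 4, 12, 28 and 32). At mid-light it was 0.70, 0.17, 0.49, 0.34 and 0.44 in tumor-bearing mice (mice 1, 5, 9, 13 and 29) and 0.37, 0.52, 0.42, 0.59 and 0.52 in vehicle injected mice (mice 2, 6, 10, 22 and 30). The ranges met only at mouse 1 at mid-light and mouse 23 at mid-dark. The mean was 0.99 ± 0.27 at mid-dark (SD, n = 9) and 0.45 ± 0.15 at mid-light (SD, n = 10), and the mid-dark mean was higher within both tumor groups. An exact two-sided permutation test within tumor status, chosen after the values were seen, gave p = 6.3e-05 with 31752 assignments. For HPC minus HYP the mean was 0.19 ± 0.16 at mid-dark (SD, n = 8) and -0.18 ± 0.16 at mid-light (SD, n = 9), with an exact permutation p of 0.00034. For HYP minus BS the means were 0.71 ± 0.15 (n = 7) and 0.64 ± 0.19 (n = 9), with an exact permutation p of 0.563. These tests use the same samples as the fit and are no independent support for it.

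No other member passed the adjusted threshold between times of day. In BS, Bcl2l1 was 10.77 to 10.97 at mid-dark (median 10.89, n = 9) and 10.52 to 10.90 at mid-light (median 10.73, n = 10), a difference of 0.14 (SE 0.043, p 0.00475, adjusted p 0.0777). In vehicle injected mice these BS groups did not overlap, which was true of 5.84% of panel genes, with mid-dark values of 10.81, 10.77, 10.95 and 10.86 against mid-light values of 10.70, 10.66, 10.70, 10.75 and 10.52. The call depended on the setting, since ordinary p values (adjusted p 0.0448) or the removal of mouse 1 (adjusted p 0.0476) brought it under 0.05. The HPC minus BS value of Bcl2l1 was -0.17, with the lowest p value of the panel after that of Bid (p 0.000814, adjusted p 0.229), in a comparison where 5.84% of genes had an unadjusted p under 0.05. Bax in BS was 8.03 to 8.40 at mid-dark (median 8.19) and 7.96 to 8.21 at mid-light (median 8.04), a difference of 0.14 (SE 0.051, adjusted p 0.165). Its dark minus light difference in BS was 0.13 larger than in HPC (p 0.0319, adjusted p 0.647) and 0.14 larger than in HYP (p 0.0213, adjusted p 0.96). Bcl2l2 in HPC was 11.38 to 11.71 at mid-dark (median 11.51, n = 10) and 11.32 to 11.52 at mid-light (median 11.38, n = 10), a difference of 0.12 (SE 0.042, p 0.00918, adjusted p 0.107). Without mouse 3 the adjusted p was 0.0376.

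Bcl2l11, which encodes BIM, had its difference in BS of tumor-bearing mice. Its values there were 5.84, 5.93, 5.87, 6.05 and 5.61 at mid-dark (mice 3, 7, 11, 19 and 23) and 5.37, 5.59, 5.32, 5.27 and 5.44 at mid-light (mice 1, 5, 9, 13 and 29). These groups did not overlap, as was the case for 2.34% of panel genes. The difference was 0.46 (SE 0.12, p 0.000942, adjusted p 0.0864), and it was under 0.05 only without mouse 4 (adjusted p 0.0383) or mouse 32 (adjusted p 0.044). In vehicle injected mice Bcl2l11 was 5.98, 5.79, 5.42 and 5.29 at mid-dark, against mid-light values of 5.87, 5.67, 5.48, 5.64 and 5.69, with wide overlap and a difference of -0.051. Averaged over both tumor groups the BS difference was 0.21 (SE 0.085, adjusted p 0.214). Bik in HPC of vehicle injected mice was 1.87, 3.55, 3.62, 1.87 and 3.84 at mid-dark (mice 4, 8, 12, 28 and 32) and 4.09, 3.60, 4.05, 3.86 and 4.08 at mid-light (mice 2, 6, 10, 22 and 30). Mice 4 and 28 were far below the others, and the difference was -0.99 (SE 0.39, adjusted p 0.202). Bcl2, Bcl2a1a, Bad and Bbc3 had dark minus light differences averaged over tumor groups of -0.079 to 0.15 across the 3 regions, none with an unadjusted p under 0.05.

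**Figure D3:**
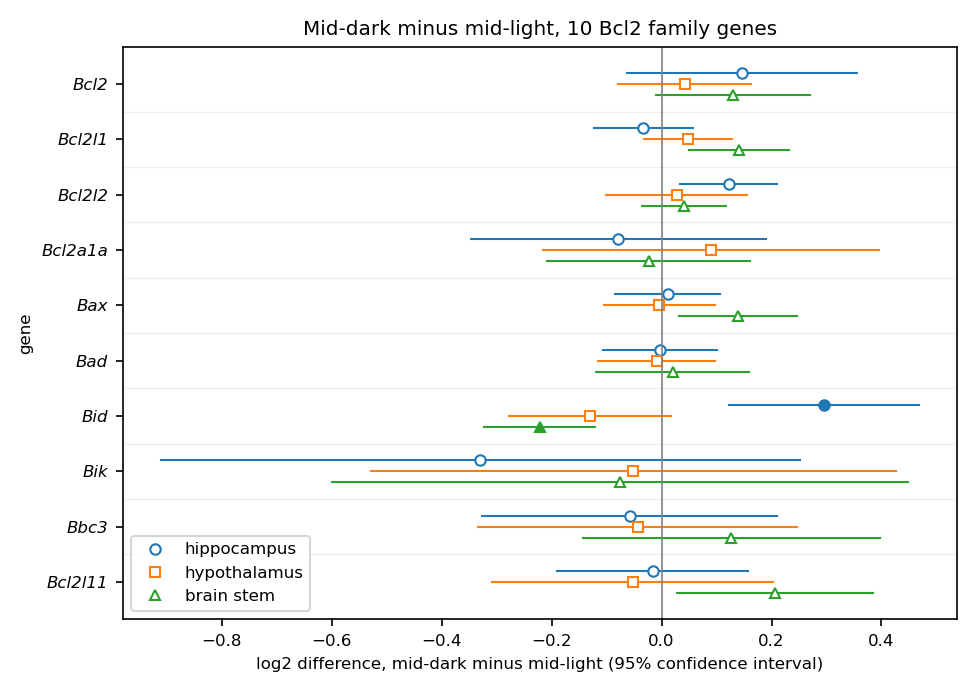
Mid-dark minus mid-light log2 difference (x axis) of the 10 Bcl2 family genes, averaged over both tumor groups, in hippocampus (circles), hypothalamus (squares) and brain stem (triangles). Lines are 95% confidence intervals and filled symbols have an adjusted p under 0.05. Filled symbols are those of Bid, at 0.30 in hippocampus and -0.22 in brain stem.

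Cell type markers moved with the time of day as well. The oligodendrocyte gene Opalin was lower at mid-dark by 1.07 in HPC, 1.05 in HYP and 1.23 in BS, and Mag and Mog were called lower in HPC and BS. Of the 5 oligodendrocyte markers, 3 were called lower in HPC, 1 in HYP and 3 of the 4 tested in BS. Their summed level (log2 of the sum) was 14.51 to 14.92 at mid-light and 13.66 to 14.85 at mid-dark in HPC, and 15.56 to 15.61 and 15.51 to 15.55 in BS. The endothelial gene Cldn5 was higher at mid-dark by 0.29 in HPC and 0.43 in BS. Their part in the differences of Bid was not tested.

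The third question was whether members differed between tumor-bearing and vehicle injected mice. Within region and phase, none of the 60 member comparisons passed the adjusted threshold. At most 0.78% of panel genes did (BS at mid-light), with 0.26% in BS at mid-dark, 0.13% in HPC at either phase and 0 in HYP. By unadjusted p under 0.05 there were 3 member comparisons, against 7.28% and 4.81% of genes in BS at mid-dark and mid-light, 6.63% and 6.89% in HPC and 4.81% and 5.19% in HYP. Bcl2l1 and Bcl2l11 in BS at mid-light were 2 of these, with differences of 0.13 (SE 0.060, adjusted p 0.976) and -0.27 (SE 0.12, adjusted p 0.839). The third was Bcl2a1a in HPC at mid-dark, with 5.88, 5.22, 5.50, 5.67 and 5.21 in tumor-bearing mice and 4.95, 5.40, 4.91, 5.06 and 5.05 in vehicle injected mice. Those groups overlapped through vehicle mouse 8, and the difference was 0.42 (SE 0.18, adjusted p 0.634).

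Averaged over the 3 regions and both phases, Bcl2l1 was the only member called, and 2.34% of panel genes were called in that comparison. In HPC it ranged from 10.62 to 10.90 in tumor-bearing mice (median 10.79, n = 10) and from 10.56 to 10.81 in vehicle injected mice (median 10.72, n = 10). In HYP it ranged from 10.79 to 11.06 (median 10.90, n = 10) and from 10.76 to 10.86 (median 10.80, n = 7), and in BS from 10.63 to 10.97 (median 10.87, n = 10) and from 10.52 to 10.95 (median 10.75, n = 9). The groups overlapped in every region, with each median higher in tumor-bearing mice. Bcl2l1 rose in tumor-bearing mice by 0.085 (SE 0.024, interval 0.036 to 0.13, 1.06-fold, adjusted p 0.0445). The difference was 0.070 in HPC, 0.096 in HYP and 0.088 in BS, with adjusted p values of 0.832, 0.445 and 0.759 in the fits of single regions, where 0.52%, 0.26% and 1.04% of genes were called. In HYP at mid-dark the groups did not overlap (3.38% of panel genes), with 11.06, 10.89, 10.90, 10.90 and 10.92 in tumor-bearing mice and 10.84, 10.80 and 10.86 in the 3 vehicle injected mice with values.

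The mean of each mouse over its regions, after the regional mean was subtracted, was 0.041 ± 0.064 in tumor-bearing mice (SD, n = 10, from -0.074 to 0.13) and -0.045 ± 0.064 in vehicle injected mice (SD, n = 10, from -0.19 to 0.069). An exact two-sided permutation test within phase, chosen after the values were seen, gave p = 0.00639 with 63504 assignments. Only the member already called was tested in this way, on the same samples as the fit. The permutation p is therefore no independent support for the call and is not corrected for that choice. The effect was 0.072 to 0.098 in all 26 alternatives, but the call was lost in 16 of them (adjusted p 0.011 to 0.148 over all). They were the removal of any 1 of mice 1, 2, 3, 4, 6, 7, 8, 9, 11, 12, 13, 22, 23, 30 and 32 and the removal of samples with a low absorbance ratio (adjusted p 0.0501).

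**Figure D4:**
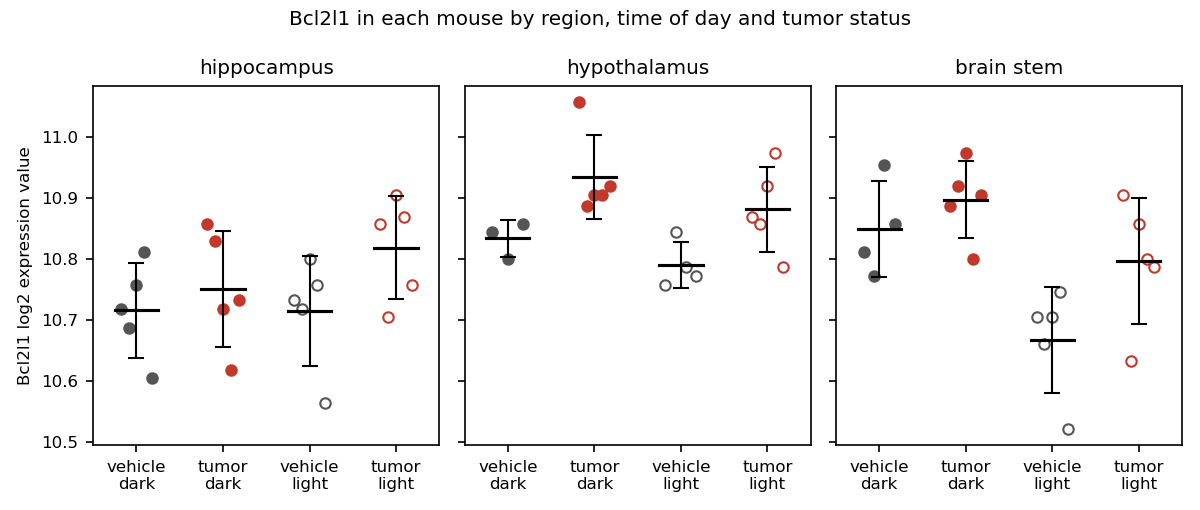
Bcl2l1 log2 expression value (y axis, not starting at 0) of each mouse in 3 regions, for vehicle injected (grey) and tumor-bearing mice (red) at mid-dark (filled) and mid-light (open). Bars are means and whiskers SD over 3 to 5 mice. The mean of tumor-bearing mice is above that of vehicle injected mice in all 6 pairs, and in hypothalamus at mid-dark the mice do not overlap.

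The other 9 members had tumor minus vehicle differences over the 3 regions of -0.085 (Bik) to 0.086 (Bcl2a1a), with adjusted p values of 0.696 to 0.981. The interval for Bax was -0.053 to 0.062 and that for Bcl2l2 was -0.070 to 0.040. The median difference of the 10 members was -0.005, as it was for all genes. No difference of the tumor effect between regions was called for any member, nor for any panel gene by limma (17, 41 and 18 of 770, or 2.21%, 5.32% and 2.34%, had an unadjusted p under 0.05 for HPC minus BS, HPC minus HYP and HYP minus BS), and no member had an unadjusted p under 0.05. The smallest was that of Bid for HPC minus HYP, at -0.13 (SE 0.092, p 0.16, adjusted p 0.948).

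**Figure D5:**
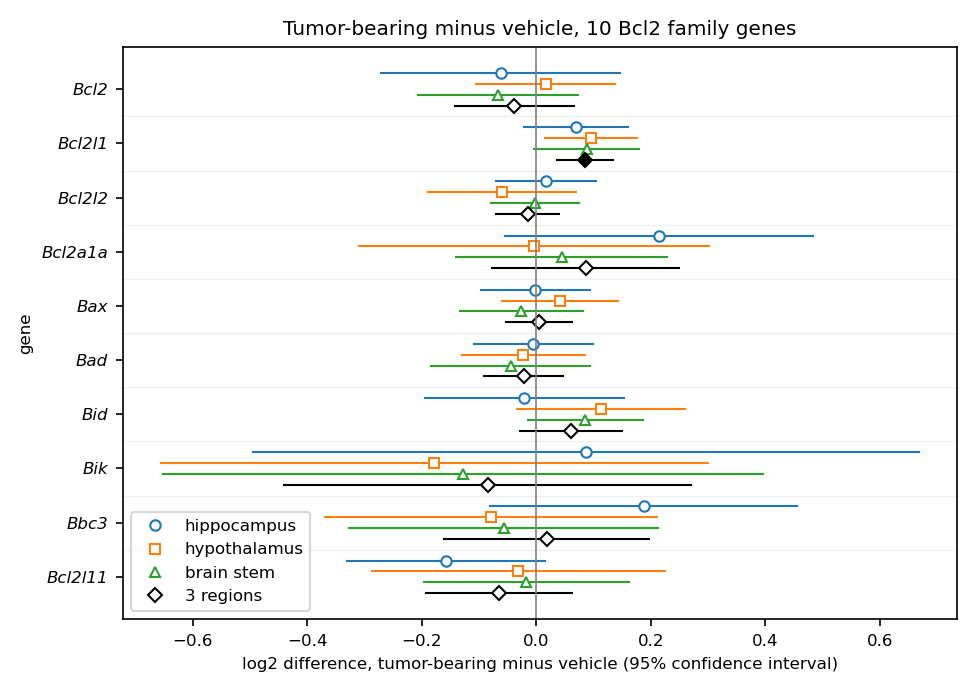
Tumor-bearing minus vehicle log2 difference (x axis) of the 10 Bcl2 family genes, averaged over both phases, in hippocampus (circles), hypothalamus (squares), brain stem (triangles) and over the 3 regions (diamonds). Lines are 95% confidence intervals and filled symbols have an adjusted p under 0.05. The filled symbol is that of Bcl2l1 over the 3 regions, at 0.085.

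The study asked whether the effect of a tumor depends on the time of collection. No interaction of tumor and phase was called for a member or for any panel gene by limma in any region, and 47, 20 and 28 of the genes tested (6.11%, 2.6% and 3.64%) had an unadjusted p under 0.05 in HPC, HYP and BS. Among members, Bcl2l11 in BS and Bik in HPC were under that limit. For Bcl2l11 in BS the tumor minus vehicle difference was 0.24 at mid-dark and -0.27 at mid-light, and the interaction was 0.51 (SE 0.17, p 0.00747, adjusted p 0.834). For Bik in HPC it was 0.75 at mid-dark and -0.57 at mid-light, and the interaction was 1.32 (SE 0.55, p 0.0285, adjusted p 0.662). Bik was the lowest valued member, and its lowest value, 1.87, was shared by vehicle mice 4 and 28 at mid-dark in HPC. The absorbance ratio moved with the BS groups. It was 1.34 to 1.99 in tumor-bearing mice (median 1.88) and 1.72 to 2.01 in vehicle injected mice (median 1.96). By phase, 3 of 9 BS samples at mid-dark and 2 of 10 at mid-light had a ratio under 1.8. All 3 at mid-dark came from tumor-bearing mice. The 26 alternatives included this ratio as a covariate and the removal of samples with a ratio under 1.8. Across all of them the Bcl2l11 interaction in BS was 0.40 to 0.63, and none called it. The dark minus light difference of Bcl2l11 in BS of tumor-bearing mice was 0.42 to 0.53 across them, with a limma adjusted p of 0.0383 to 0.333. Beside the tumor effect on Bcl2l1, 3 of the marker genes were called over the 3 regions, the endothelial genes Emcn (-0.21, adjusted p 0.00992) and Esam (0.14, adjusted p 0.0179) and the astrocyte gene Kcnj10 (-0.11, adjusted p 0.0404). The summed endothelial markers overlapped between tumor-bearing and vehicle injected mice in each region, at 10.44 to 10.91 and 10.60 to 10.84 in HPC. Their part in the value of Bcl2l1 was not tested.

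Other genes of the pathway were read from 2 lists. Of 11 other BCL2 family genes, 6 were on the panel (Bak1, Becn1, Bnip3, Bnip3l, Bok and Hrk), and of 17 genes of the mitochondrial pathway 12 were (among them Casp9, Trp53, Trp73 and Xiap). By tumor status none of these 18 was called in any comparison. By time of day only Trp53, which encodes p53, was called, lower at mid-dark in HYP by 0.22 (adjusted p 0.032). By region most were called, as were 76.6% of panel genes between HPC and BS, 71.7% between HPC and HYP and 66.5% between HYP and BS. Between HPC and BS, 3 other family genes were higher and 2 lower of 6, and 5 pathway genes were higher and 6 lower of 12. The largest difference was that of Hrk, a BH3-only gene of neurons, 3.23 higher in HPC than in BS and 1.81 higher than in HYP. Bok, a relative of Bax, was 2.11 higher in HPC than in BS. Casp9, the initiator caspase below BAX, was 0.62 higher in HPC than in BS and 0.78 higher than in HYP, while Xiap, an inhibitor of caspases, was lower by 0.31 and 0.64. Trp73 was 1.71 higher in HPC than in BS, and it is also an ependymal marker.

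The panel genes most like each member were found by Pearson correlation over the 56 samples after each region's mean was subtracted. The samples share mice and one normalization, so these values are a description. Bid was most like Fen1 (r = 0.53) and Rab7 (r = 0.52), and Bcl2l1 was most like Kdm3a (r = 0.54) and Lcn2 (r = 0.52). Bax was most like Xiap (r = 0.65) and Hdac2 (r = 0.63). Bcl2 was most like AI464131 and Rgl1 (both r = 0.62), and Bcl2l2 was most like Pak1 (r = 0.64) and Pik3cd (r = 0.60). Bad was most like Akt2 (r = 0.66) and Map1lc3a (r = 0.64), and Bbc3 was most like Mapk14 (r = 0.56) and Kdm5b (r = 0.46). The highest values were lower for Bcl2l11 (Cst7, r = 0.42), Bcl2a1a (Ptpn6, r = 0.40) and Bik (Prkce, r = 0.36). Among the members themselves, the highest correlation was that of Bcl2l1 and Bax (r = 0.49), followed by Bcl2 and Bad (r = 0.40).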

How the data were processed

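Hippocampus, hypothalamus and brain stem RNA of 20 mice was read on a nanoString nCounter panel of neuroinflammation genes. The deposited values are log2 expression values made by the authors from probe counts by background subtraction, positive control and codeset content normalization in nSolver and quantile normalization in Partek. The raw counts behind them were not analysed here. Depth per sample is therefore unknown, and precision is set by how many mice each group held.

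Groups came from the sample labels, with the mouse as the replicate. Linear models used limma 3.58.1 in R 4.3.3, with 4 group means per region, or with 12 group means and the mouse as a random block for all regions together. P values were adjusted by Benjamini-Hochberg over all genes of a comparison (769 or 770, since 2 genes with 1 value throughout a region were not tested there), with a threshold of 0.05. The study's methods name a Student's t-test and an ANOVA with an unadjusted cutoff of 0.05, and filters on the log2 fold change. Of these, only the unadjusted cutoff was tried as an alternative, on the limma p values. Exact permutation tests were two-sided. Full statistics are given for members with an unadjusted or adjusted p under 0.05, or the member with the smallest p, with other pathway genes given by list. Members were matched by symbol with no threshold on their values, but they and the lists were chosen with earlier results of these data known. The alternatives were ordinary p values, only genes averaging at least 5 on the log2 scale, subtraction of the sample median, quantile normalization repeated within regions, the 260/280 ratio as a covariate, samples with a ratio under 1.8 left out, only the 2 groups compared, no block, and each mouse left out in turn. The mouse number pairs samples, because the 3 regions came from the same animal. The models were tested on simulated data. Plots were drawn in Python 3.11.15 with numpy 2.4.6 and matplotlib 3.10.9. Probe and protein sequences and genome coordinates were not used here. Some genes of the pathway list are not reported by name here.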

Additional observations from a re-analysis of the deposited data

Results flagged for a closer look

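The dark minus light difference of Bid differed between regions, by 0.52 for hippocampus minus brain stem and by 0.42 for hippocampus minus hypothalamus (limma interaction of region and phase, adjusted p 0.00031 and 0.0129). The values by mouse are given above, and no explanation was tested.

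In 6 of 110 groups of 4 or 5 mice screened, 1 mouse stood apart from the rest of its group, and chance gives about 1 in 20 groups. Bcl2l1 in hypothalamus of tumor-bearing mice at mid-dark was 11.06 in mouse 3 against a nearest value of 10.92. Bax was 8.21 in brain stem of vehicle mouse 10 at mid-light (nearest 8.05), 8.48 in hippocampus of tumor mouse 19 at mid-dark (nearest 8.63) and 8.49 in hippocampus of vehicle mouse 2 at mid-light (nearest 8.61). Bad was 9.89 in hippocampus of vehicle mouse 4 at mid-dark (nearest 9.65) and 9.89 in hypothalamus of vehicle mouse 6 at mid-light (nearest 10.14).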

How the results depend on the processing

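No result reversed under any alternative. Of the counts of members called, 178 of 210 recomputed values were within 1.5 times the main count. That total includes comparisons whose main count was 0 and stayed 0, such as the interaction of tumor and phase (26 of 26). The tumor count over the 3 regions was within this limit in 10 of 26 alternatives. The mid-dark against mid-light count was within it in 12 of 26. By region and phase the count of members with a tumor effect was 0, and 3 with an unadjusted p value. Over the 3 regions it was 1, with 0 when samples with a 260/280 ratio under 1.8 were left out and 0 to 1 when each mouse was left out. For mid-dark against mid-light it was 2, with 1 when samples with a low ratio were left out and 1 to 3 when each mouse was left out. For the difference between regions in mid-dark minus mid-light it was 2, and 1 to 2 when each mouse was left out (1 without mouse 29). In fits with no replicate block the counts were 1 for the tumor effect over the 3 regions, 0 for the tumor effect between regions, 2 for the dark minus light difference between regions and 22, against 24, for the regional differences, where the 2 lost calls were both those of Bcl2l1. The cause was not tested. Bik was not tested where genes with a mean log2 value under 5 were left out. Groups of 3 to 5 mice and unknown depth limit what could be detected.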
